A study of Mus musculus with 46 samples.

Results

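In the liver of mice on a lipid-rich or a carbohydrate-rich diet, 806 promoter fragments whose genes were listed without RNA nevertheless took part in at least 5 promoter interactions on each diet. These silent promoters are described here. They were chosen from 17705 bait fragments, the restriction fragments carrying gene promoters that were captured for sequencing, because every gene named for the bait had a TPM (a read count scaled for gene length and library size) of 0 in all 10 RNA libraries. A bait also needed at least 5 interactions in each of the pooled interaction lists of the diets and had to lie outside the 300 baits with the most interactions. TPM and interaction number chose the baits and are given as description only.

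Genes without RNA in a tissue include many that serve other tissues or other times of life, such as receptors of sensory neurons, structural proteins of hair and skin, and transcription factors that pattern the embryo. Chromatin folds into domains within which fragments meet often, and a promoter can touch distant DNA whether or not its gene is transcribed. Acetylation of lysine 27 of histone H3 (H3K27ac) marks active promoters and enhancers, HNF4α is a nuclear receptor of hepatocyte enhancers, and C/EBPα is a basic leucine zipper factor of the same cells.

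The study kept male C57BL/6 mice, which arrived at 5 weeks of age and had 1 week on chow, for up to 20 weeks on a lipid-rich diet (LD, labelled high fat, 60% of calories from lipid) or a carbohydrate-rich diet (CD, labelled low fat, 70% of calories from carbohydrate). Whole liver was used throughout, with 5 RNA libraries, 3 H3K27ac, 2 HNF4α, 2 C/EBPα, 2 Hi-C and 2 promoter capture Hi-C libraries for each diet. The interaction lists and the domain maps each pool the replicates of a diet, so neither has a replicate error. The RNA libraries held 31707963 to 39012699 gene counts, and hepatocyte genes were abundant in all of them, with albumin (Alb) at 55330 to 67150 TPM. In whole tissue, fewer cells of a type and less RNA per cell cannot be told apart.

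Of the 2242 silent baits with any interaction, 1415 had fewer than 5 in a list and 21 were among the 300 removed for the most interactions. Just inside the lower limit lay 116 silent promoters with exactly 5 interactions in the smaller list, and just outside it 120 with exactly 4. The member with the most interactions, Krtap1-4, had 109 over both lists, and the fewest among the 300 removed was 116. The median silent promoter had 23 interactions over both lists. For comparison, 1249 baits of low genes and 3525 baits of expressed genes met the same limits on interactions, each class with a median of 26. Expressed genes had a mean TPM of 1 or more, and an expressed bait named at least 1 of them. Low baits had a highest TPM above 0 (median 0.214) and no gene that reached that mean. The lowest TPM that placed a bait in the low class was 0.00534.

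Sequences at both ends of these interactions are shown first. The following 2 fragments of distal DNA were bound by HNF4α in all 4 libraries, lay in a fragment contacted by a silent promoter, and had tag counts among the highest of the peaks that held a letter match and lay outside untranslated exons. The letters CAAAGTCCA or CAAAGGTCA, or their reverse complements, are in capitals. Both are written on the plus strand of mm9. The first lies between genes 230.8 kb from the bait of Tac2, which encodes a neuropeptide precursor, and holds 2 matches. The other lies in an intron of Txndc15, 764.1 kb from the bait of Il9, a cytokine gene. Its fragment is itself the captured bait of Txndc15.
chr10:127386710-127386914: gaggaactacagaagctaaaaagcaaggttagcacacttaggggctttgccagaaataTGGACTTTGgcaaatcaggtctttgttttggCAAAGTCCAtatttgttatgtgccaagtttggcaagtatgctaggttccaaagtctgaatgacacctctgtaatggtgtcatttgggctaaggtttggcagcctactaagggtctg
chr13:55820952-55821156: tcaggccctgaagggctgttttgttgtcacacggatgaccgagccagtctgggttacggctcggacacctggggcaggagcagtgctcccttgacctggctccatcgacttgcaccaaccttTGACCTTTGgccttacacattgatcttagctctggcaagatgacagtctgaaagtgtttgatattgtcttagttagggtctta

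The next fragment was bound by C/EBPα in all 4 libraries and lies between genes 95.91 kb from the bait of Cxcl3, a chemokine gene. A match to the letters TTGCNNAA, searched on both strands, is in capitals.
chr5:91118829-91119065: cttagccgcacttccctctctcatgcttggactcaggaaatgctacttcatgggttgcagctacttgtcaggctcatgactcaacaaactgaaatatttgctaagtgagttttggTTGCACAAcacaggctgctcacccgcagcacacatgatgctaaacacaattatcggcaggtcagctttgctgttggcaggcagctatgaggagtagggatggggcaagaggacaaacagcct

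At the silent ends themselves, the base composition differed between families, and 4 promoters show the range. Each is the stretch of 200 bases upstream of the RefSeq start in GRCm38.p6, read in the direction of the gene, with CG dinucleotides in capitals. Nkx3-2 and Emx2 encode homeobox factors of the embryo, and Olfr849 and Olfr523 encode olfactory receptors. Their positions are chr5:41764221-41764420 (minus strand), chr19:59458490-59458689 (plus), chr9:19440715-19440914 (plus) and chr7:140175904-140176103 (plus).
Nkx3-2: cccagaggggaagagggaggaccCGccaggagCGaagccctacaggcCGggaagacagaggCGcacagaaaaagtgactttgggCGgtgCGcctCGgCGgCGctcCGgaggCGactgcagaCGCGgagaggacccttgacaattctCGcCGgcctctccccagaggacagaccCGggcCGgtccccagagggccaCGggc
Emx2: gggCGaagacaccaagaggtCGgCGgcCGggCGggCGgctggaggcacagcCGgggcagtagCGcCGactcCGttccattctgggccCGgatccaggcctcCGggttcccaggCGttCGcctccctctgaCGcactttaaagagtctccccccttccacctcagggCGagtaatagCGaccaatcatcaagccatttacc
Olfr849: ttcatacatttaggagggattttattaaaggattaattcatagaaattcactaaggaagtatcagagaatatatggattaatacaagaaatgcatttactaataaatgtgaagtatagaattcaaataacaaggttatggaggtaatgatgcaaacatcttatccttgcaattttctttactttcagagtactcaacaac
Olfr523: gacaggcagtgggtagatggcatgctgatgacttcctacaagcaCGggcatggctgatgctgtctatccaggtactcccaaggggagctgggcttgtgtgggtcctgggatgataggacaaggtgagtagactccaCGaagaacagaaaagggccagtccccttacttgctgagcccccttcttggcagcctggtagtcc
These stretches held 18, 17, 0 and 2 CG dinucleotides, in that order.

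Among the named families, olfactory receptors made up the largest share of the silent promoters. Olfactory receptors, the odorant receptors of nasal sensory neurons, accounted for 243 of the 806 (30.1%), against 745 (4.21%) of all 17705 baits. Olfactory baits also made up 701 of the 2242 silent baits (31.3%) before any limit on interactions. Keratins and keratin-associated proteins, the building material of hair and skin, accounted for 39 (4.84%), against 0.497% of all baits. Homeobox factors contributed 24 (2.98%), against 0.627% of all baits. Of all 2242 silent baits, 806 passed the limits on interactions. The share that passed was 63.9% for silent keratin, 47.1% for homeobox and 34.7% for olfactory baits. It was 15.8% for vomeronasal receptors, which serve pheromone detection, of which 12 were members. The remaining families held 41 small RNAs, 23 transmitter receptors and ion channels, 11 immune receptors and cytokines, 10 liver-type enzymes and transporters, 10 other developmental factors, 9 taste and trace amine receptors, 7 epidermal differentiation proteins, 6 testis-type genes and 5 defensins. Another 85 were predicted or unnamed genes, 2 belonged to the prolactin, Psg and Ceacam families, 1 was a cadherin, and 278 belonged to no list. Families were assigned from gene symbols. The liver-type family holds symbols that begin with Cyp, Ugt, Sult, Serpin or Slc, whatever the tissue that uses the gene.

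The silent promoters lay on 20 chromosomes, with 128 on chromosome 7, 112 on chromosome 2, 75 on chromosome 11 and 57 on chromosome 9. Some olfactory and keratin clusters placed many silent promoters in 1 domain. The LD domain chr2:85090000-86295000 (mm9) held 29 of them, of which 28 were olfactory receptors. On CD, the domain chr2:85470000-86335000 held 29, all olfactory receptors. A domain with the same borders on both diets, chr11:99450000-100170000, held 25, of which 21 were keratins or keratin-associated proteins.

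Silent promoters were less often rich in CG dinucleotides than expressed ones. RefSeq promoters of 300 bases were matched for 629 of 826 silent genes, and 67 of these (10.7%) were CpG-rich, meaning a GC content of at least 50% and an observed-to-expected CG ratio of at least 0.6. The share was 67.6% for expressed genes, 35.1% for low genes and 34.1% for all RefSeq promoters. Of the 208 matched olfactory promoters, 0 were CpG-rich, while 14 of 20 homeobox promoters (70%) and 2 of 7 liver-type promoters (28.6%) were. Keratin promoters had 0 of 34 CpG-rich, but 64.7% of them held TATAAA within the 50 bases upstream of the start, on the strand of the gene, against 9.7% of the silent and 2.88% of all RefSeq promoters. Bait fragments had a median GC content of 37.6% for olfactory, 44.0% for all silent, 45.3% for keratin, 48.4% for low, 48.3% for expressed and 52.2% for homeobox baits. The distal ends differed less, with medians of 43.8% for silent and 44.6% for expressed promoters.

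Few silent baits carried the active mark themselves. H3K27ac overlapped 4.96% to 6.82% of the 806 baits across the 6 libraries, against 93.96% to 95.83% of the expressed baits. In 743 (92.2%) no library had a peak, and in 34 every library had one. Those 34 comprised 14 genes of no list, 9 small RNAs, 5 predicted genes, 3 olfactory receptors (Olfr5, Olfr1371 and Olfr221), 2 liver-type genes and 1 immune receptor. Another expressed gene overlapped the bait in 11 of them (32.4%), compared with 40 of all 806 (4.96%). Ldhc, the sperm lactate dehydrogenase gene, shared its bait with the liver-expressed Ldha, Cyp2t4 shared its bait with Egln2, and Mir26a-1 lies within Ctdspl. In addition, 36 of the 806 silent baits (4.47%), 20 of them of small RNAs, named a gene with at least 50% of its span covered by another gene on the same strand, as in the pair Amd1 and Amd2. Of the 34 baits with H3K27ac in every library, 7 (20.6%) named a gene covered in this way. Reads that fall on both of 2 such overlapping genes are not assigned, and reads of near-identical receptors may be lost in the same way. The 0 TPM of these genes is therefore uncertain. A TPM of 0 for a microRNA gene says nothing of its mature form, which these libraries did not measure.

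The distal ends of silent promoters carried H3K27ac less often than those of expressed promoters, and more often than the silent baits. Silent promoters reached 10657 distinct distal fragments. An H3K27ac peak overlapped 19.4%, 20.1% and 19.2% of them in the 3 LD libraries and 18.0%, 18.4% and 17.1% in the 3 CD libraries, a mean of 18.7% ± 1.09 (SD, n = 6). Low promoters had 25% ± 1.21, and expressed promoters, with 53135 distal fragments, had 35.9% ± 1.21. The silent promoters were below the expressed ones in 6 of 6 libraries, with a mean difference of −17.2 ± 0.219 percentage points, and the ranges of the classes did not overlap. These libraries share the same fragments and the same interaction lists, so their spread measures only the variation between peak lists, and no test over promoters was made.

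**Figure D1:**
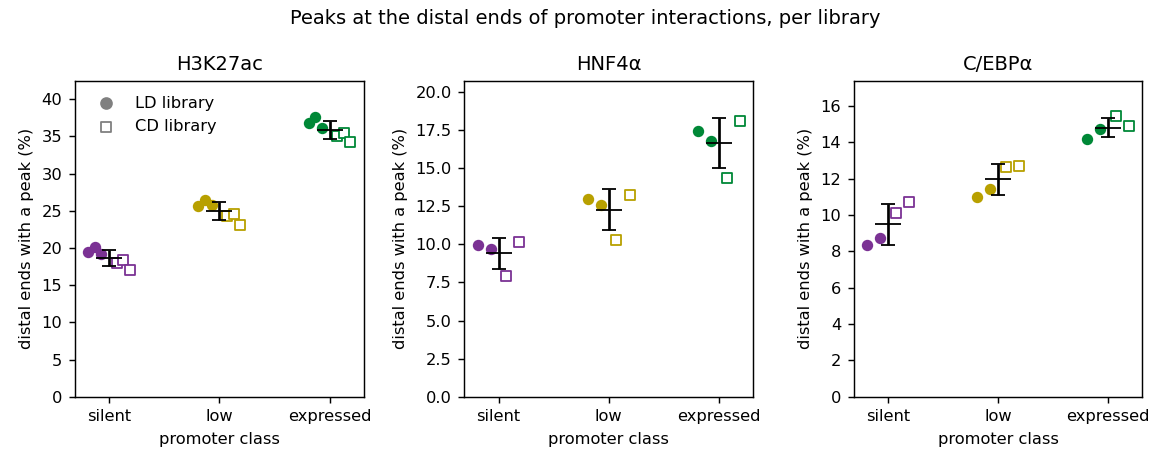
Share of distal ends (y axis, percent) that overlapped a peak of H3K27ac, HNF4α or C/EBPα for silent, low and expressed promoters (x axis), with 1 point per library. In every library of every mark the silent promoters lie below the expressed promoters, with means of 18.7% against 35.9% for H3K27ac.

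The hepatocyte factors had the same order. HNF4α peaks overlapped 9.94% and 9.66% of the silent distal ends in the LD libraries and 7.89% and 10.1% in the CD libraries. The mean was 9.40% ± 1.02 (SD, n = 4), against 16.7% ± 1.64 for expressed promoters. The low value came from CD replicate 1, whose list of 35143 HNF4α peaks was the shortest, and it was lowest for the expressed promoters too, at 14.3%. C/EBPα peaks overlapped 8.36% and 8.75% of the silent ends on LD and 10.1% and 10.7% on CD, a mean of 9.49% ± 1.12, against 14.8% ± 0.517. Silent promoters were below expressed promoters in 4 of 4 libraries for each factor. The mean difference was −7.25 ± 0.649 points for HNF4α and −5.32 ± 0.832 points for C/EBPα.

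Factor peaks at silent distal ends held the factors' letters about as often as peaks at expressed ends. Among HNF4α peaks found in every library, 56 of 583 at silent distal ends (9.61%) held CAAAGTCCA or CAAAGGTCA on either strand, as did 9.42% at expressed distal ends and 10.3% of all 23150. The middles of silent distal ends without an HNF4α peak held these letters in 0.584% of 9073 stretches of the same 205 bases. TTGCNNAA on either strand occurred in 204 of 398 C/EBPα peaks at silent distal ends (51.3%), in 44.5% at expressed ends, in 48.5% of all 13681, and in 9.69% of stretches of the same 237 bases without a peak. Peak heights were also close, with a median normalized tag count of 33.6 for HNF4α at silent ends and 36.8 at expressed ends, and of 28.2 and 29.8 for C/EBPα. The HNF4α peak reached by Tac2 had tag counts of 191.2 and 164.2 in the LD libraries, with 82.0 and 202.8 in the CD libraries. For the C/EBPα peak reached by Cxcl3 the LD libraries gave 111.0 and 107.0, the CD libraries 263.5 and 186.5.

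The marks differed with the kind of fragment that was contacted. Fragments without a captured promoter made up 79.8% of silent distal ends, and of these 14.3% ± 1.08 carried H3K27ac, against 30% ± 1.22 of such ends of expressed promoters. Silent ends that were expressed promoters carried H3K27ac in 91.6% ± 1.2, and silent ends that were other silent baits in 1.51% ± 0.344. Silent promoters shared 3787 of their distal ends (35.5%) with an expressed promoter. On those shared ends H3K27ac stood at 31.9% ± 1.35, and on the remaining 6870 at 11.4% ± 0.976. HNF4α had 15.2% ± 1.51 and 6.21% ± 0.774 at the same groups of ends, and C/EBPα 14.4% ± 1.0 and 6.76% ± 1.30.

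Single silent promoters differed widely. Among the 662 with at least 10 distal ends, the median share of ends with H3K27ac in all 6 libraries was 7.14% (interquartile range 0% to 18.8%), and 32 (4.83%) reached 50% or more. For the 3013 expressed promoters of that size the median was 31.5%, and 25.8% reached 50%. In 216 of all 806 silent promoters (26.8%) no distal end had H3K27ac in any library, compared with 10.6% of low and 2.38% of expressed promoters. Neither factor had a peak at any distal end of 90 silent promoters (11.2%), compared with 1.22% of expressed promoters.

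The families differed in H3K27ac at their distal ends by more than the libraries did. The 10 liver-type promoters had 39.5% ± 1.76 and the 11 immune promoters 35.0% ± 1.66, both near or above the range of the expressed promoters. The liver-type family is a match of symbols only and includes genes of other tissues, such as Cyp2b19 of the skin. Small RNAs had 22.4% ± 0.772, vomeronasal receptors 21.4% ± 1.28, and the genes of no list 23.1%. Olfactory receptors had 9.26% ± 0.690, homeobox factors 6.59% ± 0.344, and keratins 5.06% ± 1.15. Of the 41 distal ends of epidermal differentiation proteins, an H3K27ac peak was found in 1 library only, at 2.44% of them. HNF4α lay at 16.3% ± 1.76 of liver-type ends and at 5.40% ± 0.139 of olfactory, 5.54% ± 0.885 of homeobox, 5.49% ± 1.22 of epidermal and 4.44% ± 1.28 of keratin ends. C/EBPα lay at 15.2% ± 2.56 of liver-type, 5.84% ± 1.29 of olfactory, 5.76% ± 0.875 of homeobox and 7.0% ± 2.02 of keratin ends. Means and SDs are over 6 libraries for H3K27ac and 4 for each factor, and some families have few distal ends.

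**Figure D2:**
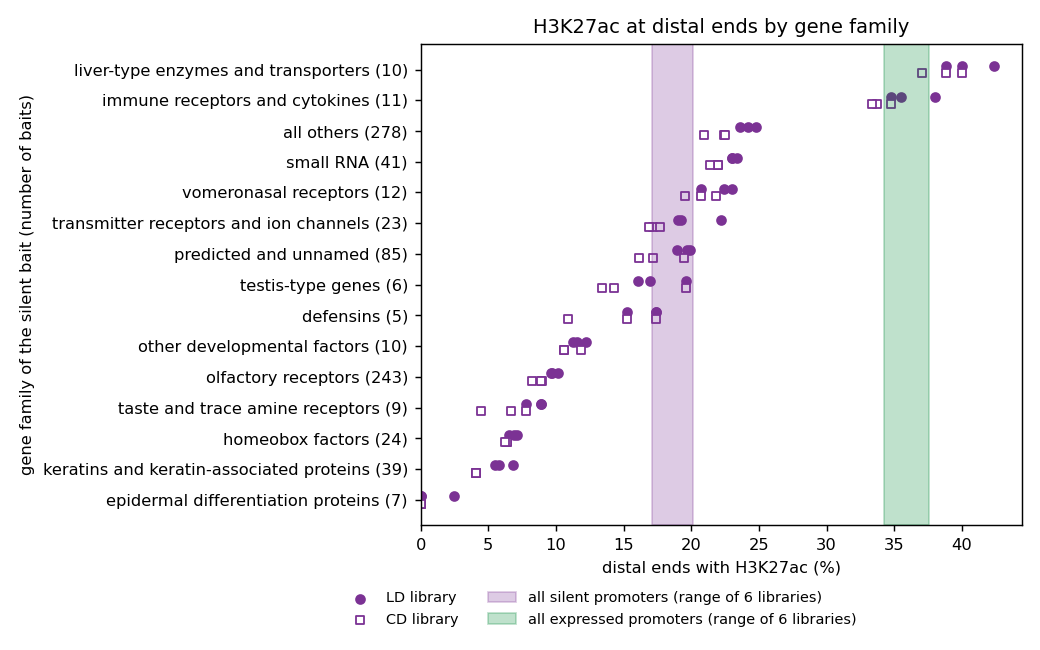
Share of distal ends with H3K27ac (x axis, percent) for each gene family of the silent promoters (y axis, number of baits in brackets), with filled points for LD and open squares for CD libraries and bands for the range of all silent and all expressed promoters. Keratin, homeobox and olfactory promoters lie left of the silent band, and liver-type promoters, at 37.1% to 42.4%, lie at the right of the expressed band or beyond it.

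Interactions of silent promoters spanned longer distances. The median distance was 302.7 kb on LD and 300 kb on CD, against 205.6 and 203.9 kb for expressed and 247.2 and 246.9 kb for low promoters. Interactions over 500 kb made up 23.7% on LD and 24.8% on CD, compared with 12.4% and 13.3% for expressed promoters. Homeobox factors reached farthest, with medians of 517.9 and 537.7 kb and only 0.588% and 0.792% of interactions under 100 kb. Keratins had medians of 445.4 and 439.1 kb and olfactory receptors 375.0 and 392.2 kb. Medians below those of expressed promoters on both diets were found for taste and trace amine receptors (151.2 kb on each diet), immune promoters (182.9 and 190.1 kb), testis-type genes (199.3 and 174.7 kb) and vomeronasal receptors (202.4 and 179.2 kb). Without the olfactory receptors, the silent promoters still had medians of 284.9 and 274.9 kb.

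**Figure D3:**
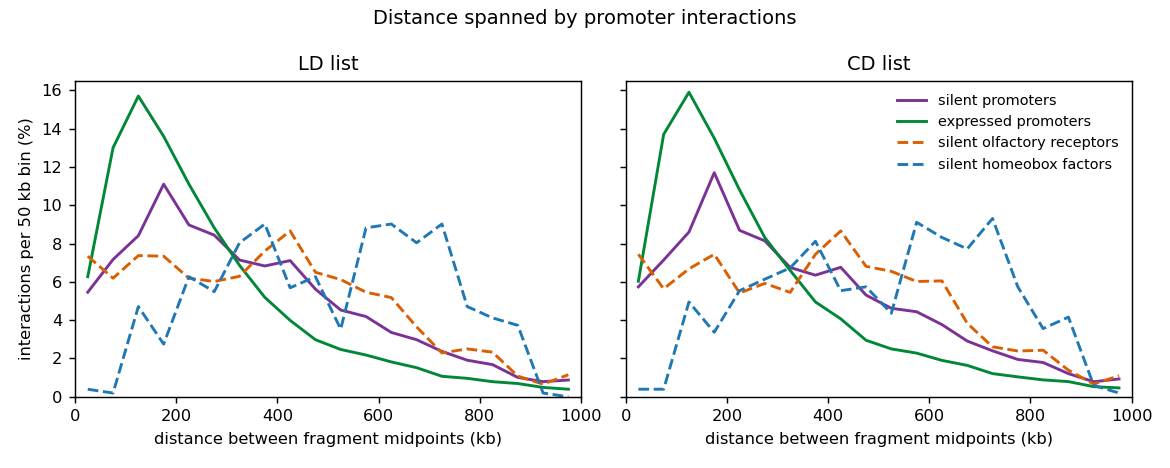
Distance between bait and distal end (x axis, kb) and share of interactions (y axis, percent) on LD and CD. Solid lines are silent and expressed promoters, and dashed lines are silent olfactory receptors and silent homeobox factors. The silent promoters have fewer interactions at short range and more over 500 kb, 23.7% on LD against 12.4% for expressed promoters.

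At matched distances the silent promoters remained below the expressed ones. Between 0 and 100 kb, H3K27ac lay at 23.5% of silent, 41.2% of low and 53.4% of expressed distal ends. Between 600 and 1000 kb the shares were 9.52%, 18.1% and 33.4%. HNF4α went from 12.6% to 5.19% between these bins for silent promoters and from 23.9% to 17.3% for expressed promoters, and C/EBPα from 11.7% to 6.44% and from 20.4% to 15.6%. Olfactory receptors stayed between 6.79% and 10.6% for H3K27ac in the 4 distance bins. With the expressed promoters weighted to the distances of the silent ones, the H3K27ac difference was −18.7 points rather than −17.2.

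**Figure D4:**
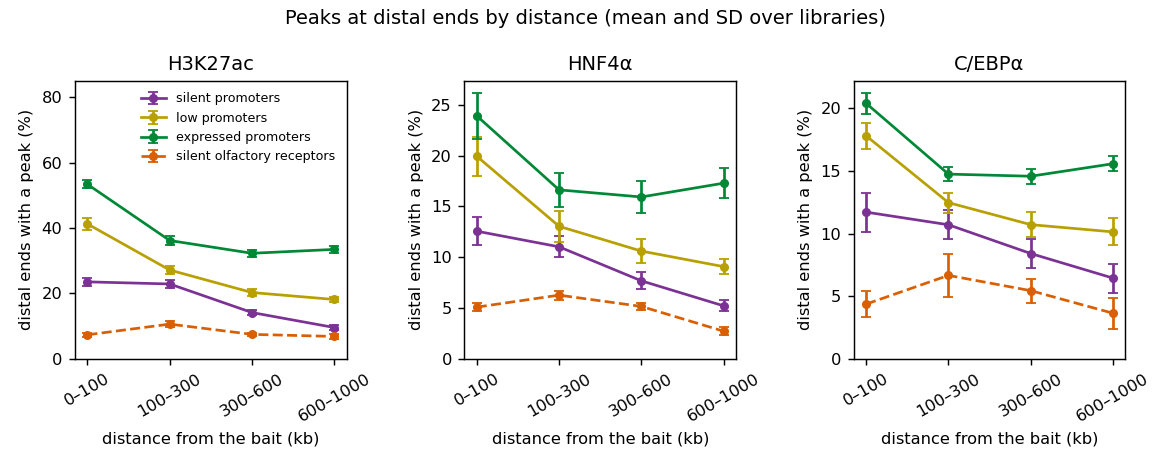
Share of distal ends with a peak (y axes, percent, mean and SD over libraries) by distance from the bait (x axes, bins in kb) for silent, low and expressed promoters and for silent olfactory receptors alone. Silent promoters lie below expressed promoters in every bin of every mark, at 9.52% against 33.4% for H3K27ac between 600 and 1000 kb.

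Silent promoters lay in larger domains. Of the 806, 805 lay in a domain on each diet, with a median size of 425 kb on LD and 420 kb on CD, against 285 and 290 kb for expressed promoters. Olfactory receptors lay in larger domains than the other silent promoters. Their median domain measured 1140 kb on LD and 1040 kb on CD, and 58.0% and 50.6% lay in domains of at least 1 Mb, compared with 1.91% and 2.68% of expressed promoters. Without the olfactory receptors the median silent domain was 350 kb on both diets. Vomeronasal receptors had medians of 1542 and 1360 kb, keratins 720 kb on both diets, and homeobox factors 390 and 445 kb. All these medians count every bait, so a domain that holds several baits enters several times. The keratin median is the size of 1 domain on chromosome 11, which held 21 of the 39 keratin baits. The share of interactions that stayed inside the domain was close between classes, at 65.1% and 67.1% for silent and 63.9% and 63.5% for expressed promoters. Olfactory receptors had 71.1% and 72.0%, whereas keratins had 42.9% and 43.8%.

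**Figure D5:**
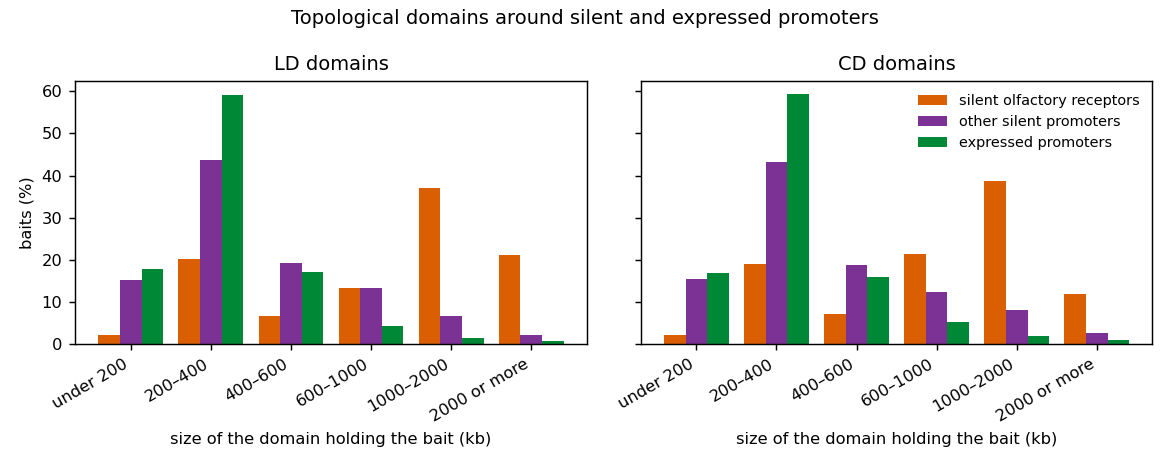
Size of the domain that holds the bait (x axis, kb) and share of baits (y axis, percent) for silent olfactory receptors, other silent promoters and expressed promoters on LD and CD. Of these classes, olfactory receptors sit in the largest domains, with a median of 1140 kb on LD, and the other silent promoters have a median of 350 kb.

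Silent promoters met other silent promoters more often than expressed promoters did. Baits made up 20.2% of silent distal ends and 14.6% of expressed ones. Of these contacted baits, 39.6% were silent for silent promoters and 7.45% for expressed promoters, while 27.4% and 53.0% were expressed baits. Without the olfactory receptors, 22.2% of the baits contacted by silent promoters were silent and 36.8% were expressed. For olfactory receptors, the 1700 distal ends were baits in 46.0% of cases, and 74.0% of those baits were silent. Of 3548 distinct olfactory interactions, 1325 (37.3%) joined 2 olfactory baits, at a median distance of 321.4 kb, and 85.8% of these lay in 1 LD domain. Keratin baits met other keratin baits in 235 of 1296 interactions (18.1%), and 1 restriction (HindIII) fragment of the chromosome 11 cluster was contacted by 32 silent promoters. Homeobox promoters were the opposite case, with another bait in 22 of 622 interactions (3.54%), against 16.6% for expressed promoters.

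Silent promoters with expressed neighbours had more H3K27ac at their distal ends. The median distance from a silent bait to the nearest other expressed gene was 63.9 kb, compared with 22.8 kb for low and 19.6 kb for expressed promoters, and 219 kb for olfactory receptors. Where the expressed gene overlapped the bait, H3K27ac lay at 25.6% ± 1.69 (SD, n = 6) of distal ends, and within 50 kb at 25.1% ± 1.35. The share was 13.3% ± 0.989 between 50 and 200 kb, 6.83% ± 0.470 between 200 and 500 kb, and 1.94% ± 0.405 beyond 500 kb. That last group comprised 79 silent promoters, 54 of them olfactory receptors. The part of neighbourhood in the family differences was not tested.

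Homeobox promoters had long interactions, and few of their distal ends carried H3K27ac. Nkx3-2 and Emx2 were named partly for having no H3K27ac at any distal end, so its absence there is description only. In the whole family, 6 of 24 baits had no H3K27ac at any distal end, against 216 of all 806 silent promoters. Each of the 24 had an HNF4α or C/EBPα peak at some distal end. Nkx3-2, whose CG-rich promoter is printed above, had 48 interactions on LD and 51 on CD. None of its 57 distal ends carried H3K27ac in any of the 6 libraries, and none was another bait. Its median distances were 676.5 and 662.8 kb, and its domain measured 830 kb. The bait that holds Emx2 and its antisense gene Emx2os had 46 and 45 interactions, 51 distal ends without H3K27ac, and medians of 715.9 and 717.1 kb. The Six3 bait, which belongs to a gene of forebrain and eye development, had 51 and 52 interactions, and 2 of its 59 distal ends carried H3K27ac in all 6 libraries. En1, a factor of the midbrain and limb, had 38 and 43 interactions, and 3 of 49 ends carried the mark in all libraries. Sox2, a factor of pluripotent and neural cells in the other developmental family, had 35 and 34 interactions and 43 distal ends without H3K27ac. Atoh7, a factor of retinal ganglion cells, differed from these, with the mark at 12 of 63 ends in every library and median distances of 147.9 and 153.6 kb.

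Olfactory receptors included promoters with and without marked ends. Olfr849, Olfr1054 and the bait of Olfr1010 and Olfr1012 were named partly for having no H3K27ac at any distal end. Olfr523 was named for its ends with both factors, so these traits are description only. Olfr849 had 38 and 46 interactions. None of its 54 distal ends carried H3K27ac or HNF4α in any library, 1 carried C/EBPα in CD replicate 1, and 9 of its 14 contacted baits were silent. It lay in a domain of 2385 kb on LD and 4720 kb on CD. The Olfr1010 and Olfr1012 bait had 37 and 38 interactions, no H3K27ac at 45 ends, and 17 silent baits among 19 contacted baits. Olfr1054 had 27 interactions on LD and 46 on CD with no H3K27ac at 49 ends. By contrast, Olfr523 had 29 and 37 interactions, and of its 40 distal ends 20, 19 and 15 carried H3K27ac in the LD and 21, 18 and 21 in the CD libraries. HNF4α and C/EBPα were both present in all libraries at 6 of those ends. Its median distances were 626.8 and 594.5 kb, its domain 280 and 270 kb, and its contacts included Cyp2e1.

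Other silent promoters touched DNA with the mark at many ends. Ces2f was named for its ends with both factors, and Cryga, Nanos2 and Pla2g1b for their shares of marked ends. Those values are description only. Ces2f, a carboxylesterase gene in a cluster with expressed relatives, had 56 and 49 interactions. Of its 66 distal ends 27, 26 and 24 carried H3K27ac on LD and 26, 26 and 27 on CD, and 7 held both factors in all libraries. Cyp2b19, a P450 gene of the skin, had 18 and 31 interactions, with H3K27ac at 15 of 35 ends in every library. Klrb1-ps1, a pseudogene of the natural killer receptor cluster, had 44 and 64 interactions, and 33 of its 71 ends carried the mark in every library. Its own bait carried H3K27ac in 6 of 6 libraries. Among promoters with at least 10 distal ends, the largest shares were those of Cryga, a lens crystallin gene whose own bait also carried H3K27ac in 6 libraries, with 12 of 13 ends marked in every library, Nanos2, a germ cell gene, with 18 of 20, and the pancreatic phospholipase gene Pla2g1b with 15 of 17. For Nanos2 and Pla2g1b, 19 and 17 of those ends were other baits.

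The promoters with the most interactions in the keratin and small RNA families had few marked ends. Krtap1-4, a hair protein gene, had 64 interactions on LD and 45 on CD, and 1 of its 71 ends carried H3K27ac in every library. Of its 19 contacted baits, 12 were silent. Sprr2k, a gene of the cornified envelope, had 17 interactions on each diet and 19 distal ends, all of them baits, and 13 of these were silent. The imprinted microRNA bait Mir296 and Mir298 had 48 and 40 interactions, with 1 of 57 ends marked in every library. It does not stand for its family, in which 22.4% of distal ends carried H3K27ac, as the mean over 6 libraries.

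The interactions themselves were shared between diets slightly less often for silent promoters. Of 15787 interactions counted from the silent side, 8287 (52.5%, 95% Wilson interval 51.7% to 53.3%) were in both lists, against 56.7% (56.3% to 57.0%) for expressed promoters. The interval covers counting error only. Keratins had 40.6%, olfactory receptors 48.5%, homeobox factors 63.2% and immune genes 65.1%. Interactions found in 1 list only were near the limit for a call, with a median CHiCAGO score of 5.81 on LD and 5.83 on CD, compared with 7.71 and 7.76 for those in both. With interactions of a score of at least 10, 148 silent promoters were left. The difference was then 0.54 points, silent above expressed, which is smaller than its 95% counting error of 2.56 points.

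Between diets, H3K27ac was more frequent at silent distal ends on LD, and C/EBPα at silent baits on CD. H3K27ac lay at 19.6% ± 0.475 (SD, n = 3) of silent distal ends on LD and 17.8% ± 0.666 on CD, and the groups did not overlap (exact permutation test, two-sided p = 0.1, the smallest that 3 against 3 allows). The LD lists held 53821 to 56987 peaks and the CD lists 48156 to 51608, and expressed distal ends differed by 1.92 points, close to the 1.76 points of silent ends. The part of list length in the difference was not tested. C/EBPα lay at 49 and 54 silent baits on LD and 83 and 101 on CD, 6.08% and 6.70% against 10.3% and 12.5% (exact permutation test, two-sided p = 0.33, the smallest that 2 against 2 allows). Expressed baits had 45.0% and 45.8% on LD and 48.7% and 43.0% on CD. The CD lists of C/EBPα peaks were longer, 41713 and 46371 against 38281 and 39310. The peaks at silent baits were low, with median tag counts of 9.0 and 9.5 on LD and 9.25 and 8.0 on CD. In all, 631 of 806 silent baits had no C/EBPα peak in any library.

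Many genes at the baits contacted by silent promoters were at 0 TPM. These baits carried 2018 genes, of which 396 were genes of the silent promoters themselves, at 0 TPM by choice. Those 396 are left out of the values that follow. Of the other 1622 genes, 518 (31.9%) had 0 TPM, against 28.4% of all 25494 genes. The latter share still includes the genes of silent promoters, so the shares are not like for like. A mean above 0 and up to 1 was found for 425. Another 341 lay between 1 and 10, 265 between 10 and 100, and 73 (4.50%) above 100 TPM. Of the 781 that passed the filter on low counts, 107 (13.7%) were called higher and 69 (8.83%) lower on LD. A call needed an adjusted p under 0.05 and a fold change above 1.2 in either direction. Over all 13494 genes tested, 24.9% were called, 13.8% higher and 11.1% lower, so the 22.5% called among contacted genes was near the background. Of the genes named in the following paragraphs, the contacts of Hpx, Ces3a, Glul, Cox6b1, Cox6a1, Sh2d1b1 and Lrrc16a were not in both lists. The fold changes, standard errors and adjusted p values of the contacted genes come from a quasi-likelihood fit in edgeR across all genes tested, adjusted after Benjamini and Hochberg, with 5 mice on each diet.

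The abundant contacted genes included liver genes that did not pass the test. Cyp2e1, the ethanol-metabolizing P450, was contacted by 6 silent baits, namely those of Olfr522, Olfr523, Olfr524, Olfr527, Olfr535 and Prap1. It stood at 4764 to 8040 TPM on LD and 5538 to 7892 on CD, groups that overlapped (log2 difference −0.04 ± 0.15 SE, adjusted p = 0.878). Rpph1, the RNA of ribonuclease P, was contacted by 7 silent baits, and had 25940 to 42550 TPM on LD and 35460 to 52120 on CD (adjusted p = 0.16). Ces3a, contacted by Ces2f, had a log2 difference of −0.30 (adjusted p = 0.0509), and was called lower on LD with DESeq2 (−0.31) and without LD replicate 1 (−0.34) or LD replicate 4 (−0.35). Cox6b1, Cox6a1 and Ddt were not called either.

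Other abundant contacted genes were higher or lower on LD. Hpx, the haem-binding plasma protein hemopexin, was contacted by Olfr685. Its TPM was 6067, 7034, 6289, 6770 and 6981 on LD, compared with 4387, 4903, 4532, 3716 and 4112 on CD, a log2 difference of 0.54 ± 0.09 (adjusted p = 0.000841). All LD values were above all CD values. Gstm1, a glutathione transferase contacted by Gpr61, was higher by 0.78 ± 0.21 (adjusted p = 0.0174). Glul, the glutamine synthetase contacted by Zfp648, was higher by 0.40 ± 0.13 (adjusted p = 0.0313), and the call was lost with the replicate block (0.39) and without any of LD replicates 1, 3 and 4 or CD replicates 1, 2 and 3 (0.33 to 0.41). Rnase4, contacted by Ccnb1ip1, had a log2 difference of −0.65 ± 0.18 (adjusted p = 0.0214), and the call was lost without LD replicate 3 (−0.63) or CD replicate 4 (−0.60).

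Of contacted genes with a mean of at least 1 TPM on a diet, the 5 with the largest increases on LD are described next. Ubd, a ubiquitin-like modifier induced by inflammatory cytokines, was contacted by 5 silent baits, among them Olfr95 and the bait of Olfr90 and Olfr91. Its TPM was 8.58, 10.9, 18.6, 13.1 and 25.3 on LD, compared with 1.33, 0.974, 1.25, 0.373 and 1.0 on CD (log2 difference 3.84 ± 0.34, adjusted p = 2.09e-05), and the groups did not overlap. Sprr1a, a cornified envelope precursor contacted by Sprr2k, had 0.778 to 11.1 TPM on LD and was at 0 in 4 of 5 CD libraries, with 0.0643 in the other (adjusted p = 0.00137). Mmp13, a collagenase contacted by 1700128F08Rik, was higher by 3.56 ± 0.67 on the log2 scale (adjusted p = 0.00265). Sh2d1b1, an adaptor of lymphoid cells contacted by Sh2d1b2, was higher by 3.98 ± 0.79 (adjusted p = 0.00345), or 3.04 without LD replicate 2. S100a8, a calcium-binding protein of neutrophils contacted by Pglyrp4, had 124.4 TPM in LD replicate 2 and 6.83 to 10.1 in the other LD libraries, against 1.47 to 3.27 on CD. Its log2 difference was 3.67 ± 1.13 (adjusted p = 0.0406) and 1.65 without LD replicate 2. The call was lost with DESeq2, without the filter, with the replicate block (2.59) and without any 1 of the CD libraries (3.53 to 3.80).

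The 5 largest decreases on LD by the same rule included a lipid carrier. Fabp5, a fatty acid-binding protein, was contacted by the silent baits of its relatives Fabp9 and Pmp2. It stood at 15.2, 25, 19.5, 17.3 and 24.3 TPM on LD and at 510.9, 450.1, 108.4, 426.3 and 207.4 on CD (log2 difference −4.16 ± 0.46, adjusted p = 0.000367). The lowest CD value lay above the highest LD value. Cadm4, a cell adhesion molecule contacted by Gm5893 and Lypd3, had 0.649 to 2.03 TPM on LD and 4.27 to 6.02 on CD (−2.05 ± 0.23, adjusted p = 6.46e-05). Reck, an inhibitor of matrix metalloproteinases contacted by Olfr159, had a log2 difference of −1.47 ± 0.15 (adjusted p = 2.37e-05). Lrrc16a, contacted by Scgn, had a log2 difference of −1.50 ± 0.19 (adjusted p = 0.000281), and Ihh, the hedgehog ligand contacted by Resp18, −1.29 ± 0.25 (adjusted p = 0.00205).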

How the data were processed

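Liver libraries were grouped by labelled diet (LD, high fat; CD, low fat). Per the study's methods, the authors aligned reads to mm9, counted RNA read pairs by gene with featureCounts 1.5.0-p1 on the stranded setting, called H3K27ac peaks with SICER, called factor peaks with HOMER, and called interactions with CHiCAGO on the pooled replicates of a diet. Interactions between chromosomes or over 1 Mb were discarded. The deposited values were raw counts per gene, TPM, a CHiCAGO score of at least 5 per interaction, peak positions, and HOMER's normalized tag count, a signal scaled by the authors to a common library size. The count and TPM tables were whole-series files. One TPM column, labelled LFD Rep13, names no labelled replicate and was used only as a CD library. The TPM file also holds the authors' DESeq2 comparison (fold change, FDR and status), and the domain files a domain score. Neither was used.

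A bait took all genes named by its RefSeq and capture-design columns, and 4552 baits with a symbol lacking a TPM row were left unclassified. Distal ends of both lists were pooled, and a peak counted when it overlapped by at least 1 bp. Wilson intervals were at 95%. HindIII sites in the reference matched the start of 92233 of 92233 fragments, so sequences were read from mm9 (NCBIM37). Promoters came from RefSeq, GRCm38.p6. Diet tests used edgeR 4.0.16 (R 4.3.3, quasi-likelihood, filterByExpr, TMM, Benjamini-Hochberg at 0.05) on counts of all genes, with DESeq2 1.42.0 as an alternative. Called genes also had a fold change above 1.2 in either direction. In simulated data with 13408 genes, 88 of 99 genes changed 2-fold, 70 of 100 changed 1.5-fold and 9 of 13209 unchanged genes were called. The edgeR p-values set the difference between diets against the spread among the 5 mice of a diet. The exact permutation p-values rest on 3 H3K27ac or 2 C/EBPα libraries for each diet.

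Baits and gene lists were chosen with earlier results of these data known. The text names, by rule, the bait with the most interactions in each family of at least 5, the 10 with the largest share of H3K27ac ends, the 5 with the most ends holding both factors, the 5 with the most interactions and no H3K27ac, up to 10 homeobox or developmental baits, and contacted genes (10 of highest TPM, 5 of largest fold each way). Not every bait so chosen is described. Olfr685, Ldhc, Cyp2t4, Mir26a-1, the Amd pair and the baits of the printed sequences were added after their values were seen.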

Additional observations from a re-analysis of the deposited data

Results flagged for a closer look

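Of 40 groups of 5 RNA libraries examined for the named genes at contacted baits, 3 held 1 library far from the other 4, and chance gives about 1 group in 20. Sprr1a stood at 0.0643 TPM in the CD library labelled Rep13 and at 0 in the other CD libraries. Sh2d1b1 stood at 4.26 TPM in LD replicate 2 and at 0.429 to 1.45 in the other LD libraries. S100a8 stood at 124.4 TPM in LD replicate 2 and at 6.83 to 10.1 in the other LD libraries.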

How the results depend on the processing

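Silent promoters stayed below expressed promoters in H3K27ac, HNF4α and C/EBPα at distal ends, and above them in distance and domain size, under every alternative run. The H3K27ac difference of −17.2 points was −16.4 with symbols lacking a row ignored, −18.4 with each diet's own list, −15.7 without contacted baits, −23.3 at a score of at least 10, −16.3 with at least 10% of the fragment covered, −16.8 with peaks of at least 1000 bp and −18.7 with distances matched. It was −15.4 without olfactory receptors and −19.0 without baits that held H3K27ac or an overlapped gene (715 left). These last 2 settings were chosen after seeing the data. The HNF4α difference of −7.25 points was −6.13 without contacted baits, −10.2 at a score of at least 10, −5.16 with the higher peaks of each library, −8.25 with distances matched, −6.49 without olfactory receptors and −8.06 without the marked or overlapped baits. For C/EBPα, −5.32 points became −7.54 at that score, −4.21 with the higher peaks and −6.16 with distances matched. Leaving out each library in turn gave −17.2 to −17.1 for H3K27ac, −7.52 to −7.01 for HNF4α and −5.70 to −5.09 for C/EBPα.

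The difference in median distance was 96.7 kb with the interactions of both diets pooled. It was 87.9 kb with symbols lacking a row ignored and 105.6 kb with at least 10 interactions. The difference became 75.3 kb without olfactory receptors, 112.9 kb without marked or overlapped baits and 70.3 kb at a score of at least 10. The domain difference of 135 kb, also pooled over both diets, was 60 kb at that score and 60 kb without olfactory receptors. Without marked or overlapped baits it was 180 kb. The difference in interactions shared by both lists, −4.19 points, was 0.54 points at that score and −2.80 without olfactory receptors. The number of silent promoters was 433 with at least 10 interactions and 148 at that score, which keeps fewer interactions. Scores, depth of the pooled lists and peak list length limit these values, and without replicate lists no replicate error can be given for distance or domain size.

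Among contacted genes, 176 were called. The count was 114 of 498 with interactions of both lists only, 172 with the replicate block, 210 with DESeq2, 179 with DESeq2's size factors, 183 without the filter, and 145 to 184 without each library in turn. The labels do not tie replicate numbers to shared mice or days, same-number correlations were −0.08 to 0.19, and 1 of 5 numbers had its best match in the same number, so the samples shared only a number. Over all named genes and settings, a call was lost 17 times (S100a8, Glul and Rnase4) and gained 3 times (Ces3a). Cyp2e1, not called, ranged from −0.11 to 0.09 on the log2 scale without each library in turn, and changed sign without LD replicate 5 (0.09) and without CD replicate 3 (0.02).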
